A study of Danio rerio with 4 samples.

Results

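The genes described here code for collagens, laminins and other components of the extracellular matrix. They were chosen by name alone, as every gene in the deposited tables whose symbol starts with a collagen, laminin, fibronectin, fibrillin, SPARC, matrilin, aggrecan, hyaluronan synthase, thrombospondin, periostin or tenascin C stem. The rule used no measured value, though it was set with earlier results of these data known. It took 48 of 14417 genes. They are 21 collagen chain genes, 7 laminin chain genes, 15 matrix glycoprotein genes, 3 hyaluronan synthase genes, and col4a3bp and col4a3bpa, which the col4 stem takes although they code for a ceramide transfer protein and not for a matrix chain. No aggrecan gene was among them.

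The cells came from embryos of the zebrafish strain gata1:GFP, in which a promoter of the erythroid gene gata1 drives a green fluorescent reporter. Embryos received a foxo3b morpholino (foxo3b MO) or, as the control, a standard morpholino, injected at the one-cell stage, so all groups were injected and carried the reporter. A morpholino is an antisense oligonucleotide that blocks translation or splicing of its target RNA. Gata1+ cells were sorted by fluorescence at 48 and at 24 hours post fertilization (hpf), and 1 RNA-seq library stands for each of foxo3b MO at 48 hpf, control at 48 hpf, foxo3b MO at 24 hpf and control at 24 hpf. The sources used here do not give the morpholino dose, its target site or how many embryos were pooled. With 1 library per group there is no replicate error, no test was run, and every difference below is between 2 libraries.

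Fibrillar collagens assemble from 3 chains into a triple helix and then into fibres, which other collagens link to their surroundings. Basement membranes are thin sheets under epithelia and around muscle, notochord and vessels, and are built on a network of collagen IV and of laminins, each laminin joining an alpha, a beta and a gamma chain. SPARC, periostin, matrilins, thrombospondins, tenascins, fibrillins and fibronectins bind these networks or one another. In zebrafish embryos these genes are known mainly from notochord, epidermis and fin fold, somites, cartilage and mesenchyme, and not as products of red cells.

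Values are FPKM, read fragments scaled to transcript length and to library size. Folds are given as log2((FPKM + 1)/(FPKM + 1)), which understates the change of genes with low values, and a difference of 2-fold or more means 1 or more on this scale. Of the 48 genes, 47 reached a mean of 1 FPKM over the 4 libraries, as did 11971 of all genes, and has1 did not. The targeted gene foxo3b had 50.3 FPKM in foxo3b MO and 38.1 FPKM in control at 48 hpf, and 46.5 FPKM in foxo3b MO against 6.40 FPKM in control at 24 hpf. The foxo3b mRNA level was thus higher in foxo3b MO at both stages. Because the morpholino's target site is not given, this level checks neither the labels nor the extent of knockdown. The sort marker gata1a had 4.33 FPKM in foxo3b MO and 2.49 FPKM in control at 48 hpf, and 6.30 FPKM in foxo3b MO and 8.23 FPKM in control at 24 hpf. All 12 measured red cell markers were above 0 in every library, and their summed level was 9860 FPKM in foxo3b MO against 25885 FPKM in control at 48 hpf and 3713 FPKM in foxo3b MO against 15416 FPKM in control at 24 hpf. A few abundant markers weigh heavily in these sums. Hbae3 alone had 3710 FPKM in foxo3b MO and 11506.5 FPKM in control at 48 hpf. The median log2 fold of the 12 markers was -0.20 at 48 hpf and -1.23 at 24 hpf. Markers of other tissues were present too, with epidermis and fin fold markers summing to between 19231 and 23998 FPKM and muscle markers to between 7163 and 35359 FPKM. Total FPKM was 1505450 in foxo3b MO and 2402300 in control at 48 hpf, and 1576670 in foxo3b MO and 2288670 in control at 24 hpf. Read totals are not in the files. The steps between low values put sequencing depth, relative to the 24 hpf control library, at 0.494 and 0.542 in the 48 and 24 hpf foxo3b MO libraries and at 0.711 in the 48 hpf control library, so low values are coarser in foxo3b MO.

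Matrix transcripts were detected in every library of these sorted cells. The 48 genes summed to 3039 FPKM in foxo3b MO and 3598 FPKM in control at 48 hpf, and to 2313 FPKM in foxo3b MO and 2026 FPKM in control at 24 hpf. That was 0.202% of the total in foxo3b MO and 0.150% in control at 48 hpf, against 0.147% in foxo3b MO and 0.0885% in control at 24 hpf. These shares depend on totals in which single genes weigh heavily. The highest gene alone had 100613 FPKM in foxo3b MO and 307548 FPKM in control at 48 hpf. At 24 hpf it had 88013 FPKM in foxo3b MO and 122922 FPKM in control. The median matrix gene stood at 15.5 FPKM in foxo3b MO and 18.3 FPKM in control at 48 hpf, and at 17.9 FPKM in foxo3b MO and 14.4 FPKM in control at 24 hpf, where the median of all genes lay between 7.50 and 9.69 FPKM. In bulk libraries such as these, fewer cells of a type and less RNA per cell cannot be told apart.

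A pair of genes held a large share of that sum. Sparc (Zv9 chromosome 14, 26948447 to 26966363), a secreted collagen-binding glycoprotein, had 1092 FPKM in foxo3b MO and 1384 FPKM in control at 48 hpf, and 361 FPKM in foxo3b MO and 454 FPKM in control at 24 hpf. Postnb (chromosome 15, 33133894 to 33162867), a periostin that links collagen and tenascin, had 622 FPKM in foxo3b MO and 814 FPKM in control at 48 hpf, and 160 FPKM in foxo3b MO and 208 FPKM in control at 24 hpf. Together they made up 56.4% of the matrix sum in foxo3b MO and 61.1% in control at 48 hpf, against 22.5% in foxo3b MO and 32.6% in control at 24 hpf. Without them the matrix genes summed to 1326 FPKM in foxo3b MO and 1400 FPKM in control at 48 hpf, and to 1792 FPKM in foxo3b MO and 1365 FPKM in control at 24 hpf. The 21 collagens alone summed to 886 FPKM in foxo3b MO and 880 FPKM in control at 48 hpf, and to 1173 FPKM in foxo3b MO and 981 FPKM in control at 24 hpf. Of the 48 genes, 33 averaged 10 FPKM or more and 46 were above 0 in all 4 libraries. The exceptions were col10a1, listed at 0 in foxo3b MO at 24 hpf, and has1, listed at 0 in both 24 hpf libraries.

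**Figure D1:**
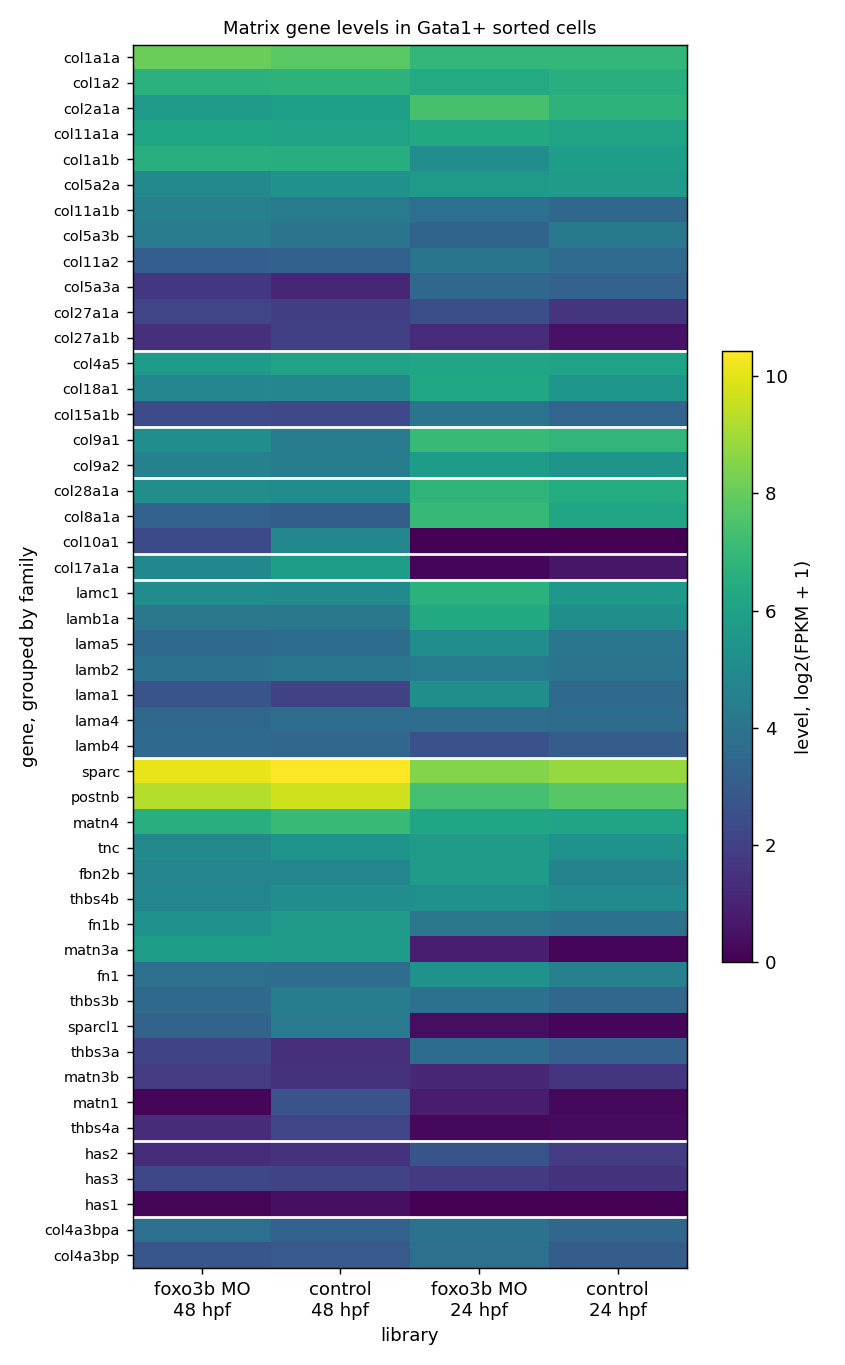
Level of each of the 48 genes, as log2(FPKM + 1) in colour, with a row per gene grouped by family and a column per library. Sparc and postnb are the brightest rows, at 1092 and 622 FPKM in foxo3b MO and 1384 and 814 FPKM in control at 48 hpf, and matn3a, col17a1a, sparcl1 and col10a1 are near the bottom of the scale at 24 hpf only.

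At 24 hpf the laminins stood out among the matrix genes compared between foxo3b MO and control. Lama1, lamb1a, lamc1 and lama5 were 2-fold or more higher in foxo3b MO, as was fbn2b, a fibrillin of the fin fold and notochord. These were 5 of the 47 genes, the 2 ceramide transfer genes included, where 3.12% of all genes were 2-fold or more higher. None of the 47 was 2-fold or more lower, where 1.94% of all genes were. The median log2 fold of the 47 genes was 0.30, beside 0.19 for all genes, and 36 of the 47, or 76.6%, were above 0, as were 68.2% of all genes. The number of higher genes was 1 (lama1) after median-ratio scaling, 2 after centring by locus width and mean level, and 13 after scaling to equal totals. Over all 11971 genes, 188 were higher after median-ratio scaling and 2332 after scaling to equal totals.

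Lama1 (chromosome 24, 43450248 to 43542737) codes for the alpha 1 chain of the laminin that early embryos deposit, and zebrafish mutants in it have notochord defects. It had 35.5 FPKM in foxo3b MO against 11.3 FPKM in control, a log2 fold of 1.57 and the highest of the matrix genes. Its partner chain gene lamb1a (chromosome 25, 32519229 to 32606949) had 80.9 FPKM in foxo3b MO against 36.1 FPKM in control (log2 fold 1.14). Lamc1 (chromosome 2, 35601432 to 35699928), which codes for the gamma 1 chain shared by most laminins, had 99.3 FPKM in foxo3b MO against 46.0 FPKM in control (log2 fold 1.09). All 3 chains of this laminin were thus more than 2-fold higher in the values as deposited, with lama1 furthest from control. With median-ratio scaling lamb1a and lamc1 fell short of 2-fold, at log2 folds of 0.91 and 0.86. With centring lamb1a did, at 0.88. Lama5 (chromosome 23, 9674222 to 9875589), the alpha chain of epidermal and fin fold basement membranes, had 33.3 FPKM in foxo3b MO against 16.0 FPKM in control (log2 fold 1.02). It too fell short of 2-fold, at 0.79 with median-ratio scaling and 0.67 with centring. The other laminin chains lay nearer to control. Lamb2, the beta chain of muscle and nerve basement membranes, had 19.3 FPKM in foxo3b MO and 15.2 FPKM in control, and lama4, the vascular alpha chain, had 12.1 FPKM in foxo3b MO and 11.8 FPKM in control. Lamb4, which lies next to lamb1a, was the laminin with a negative log2 fold, -0.44, at 5.19 FPKM in foxo3b MO and 7.39 FPKM in control.

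The 7 laminins summed to 286 FPKM in foxo3b MO against 144 FPKM in control at 24 hpf. At 48 hpf the sums were 102 FPKM in foxo3b MO and 102 FPKM in control. The higher laminin level was therefore seen at 24 hpf and not at 48 hpf, where the median log2 fold of the 7 genes was -0.04, beside 1.02 at 24 hpf. With median-ratio scaling the 24 hpf median was 0.79, with equal totals 1.53, and with centring 0.67, while the 48 hpf median turned to 0.60 with equal totals. Lama1 kept the highest laminin log2 fold at 48 hpf, 0.65, at 5.55 FPKM in foxo3b MO against 3.17 FPKM in control. Lamb1a had 16.8 FPKM in foxo3b MO and 17.2 FPKM in control at 48 hpf, and lamc1 had 33.0 FPKM in foxo3b MO and 31.2 FPKM in control. The chains were not at equal levels: lamc1 stood at 5.94 times lama1 in foxo3b MO and 9.85 times in control at 48 hpf, and at 2.79 times in foxo3b MO and 4.08 times in control at 24 hpf.

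**Figure D2:**
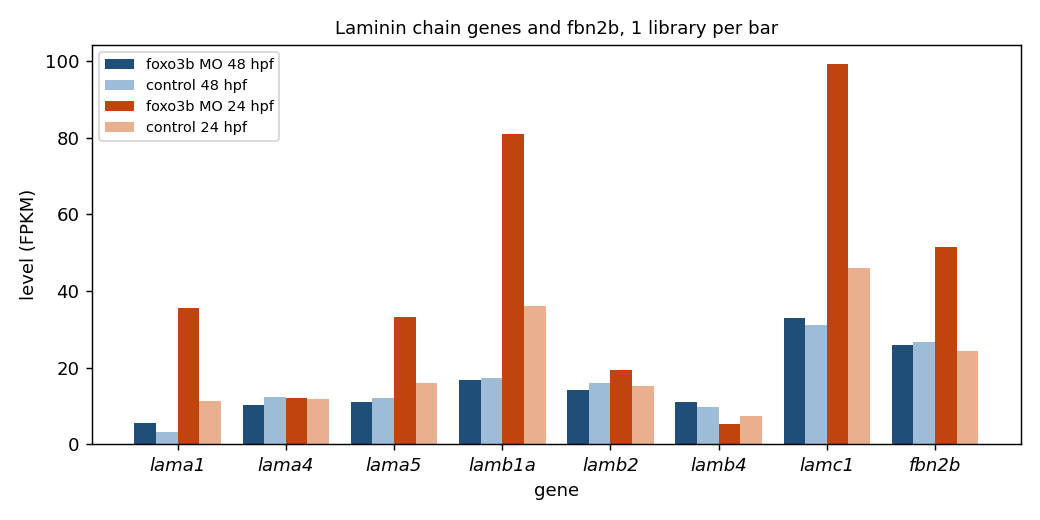
FPKM of the 7 laminin chain genes and fbn2b, with 1 bar per library and no error bars, since each group is 1 library. Lama1, lama5, lamb1a, lamc1 and fbn2b are highest in foxo3b MO at 24 hpf, with lamc1 at 99.3 FPKM against 46.0 FPKM in control, while the bars of foxo3b MO and control at 48 hpf are of similar height for all but lama1.

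Fbn2b (chromosome 22, 3998377 to 4039283) had 51.3 FPKM in foxo3b MO against 24.4 FPKM in control at 24 hpf (log2 fold 1.04), and 25.8 FPKM in foxo3b MO and 26.7 FPKM in control at 48 hpf. Its 24 hpf log2 fold fell short of 2-fold, at 0.82 with median-ratio scaling and 0.71 with centring. Has2, the main hyaluronan synthase of early embryos, had 5.58 FPKM in foxo3b MO against 2.52 FPKM in control at 24 hpf, a log2 fold of 0.90 just under the threshold. At 48 hpf has2 had 1.58 FPKM in foxo3b MO and 1.87 FPKM in control. Fn1, the fibronectin of somite boundaries and heart precursors, had 39.2 FPKM in foxo3b MO and 22.2 FPKM in control at 24 hpf (log2 fold 0.80), and 13.2 FPKM in foxo3b MO and 12.4 FPKM in control at 48 hpf. Like the laminins, these 3 genes differed more at 24 hpf than at 48 hpf. Its paralog fn1b had 16.5 FPKM in foxo3b MO and 13.7 FPKM in control at 24 hpf, with a log2 fold of 0.26.

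No collagen was 2-fold apart between foxo3b MO and control at 24 hpf. After scaling to equal totals 5 were 2-fold or more higher, and after median-ratio scaling 1 was lower. Of all 11971 genes, 2332 were higher after the former and 372 lower after the latter. The median log2 fold of the 21 collagens was 0.28, and 0.04 after median-ratio scaling. For the 12 fibrillar collagens it was 0.22, and -0.00 after median-ratio scaling and -0.07 after centring. Type I collagen, the commonest fibre-forming collagen of skin and fin fold, lay close to control or below it. Col1a1a had 119.99 FPKM in foxo3b MO and 119.8 FPKM in control, and col1a2 had 83.2 FPKM in foxo3b MO and 95.7 FPKM in control. Col1a1b, the second alpha 1 gene, had 33.5 FPKM in foxo3b MO and 56.5 FPKM in control (log2 fold -0.74). The 2 alpha 1 genes together stood at 1.84 times col1a2 in both 24 hpf libraries. Col5a3b, a type V chain that joins type I fibres, had the lowest log2 fold of all the matrix genes, -0.86, at 9.25 FPKM in foxo3b MO and 17.7 FPKM in control.

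Several collagens of notochord sheath and basement membranes had log2 folds above the collagen median. Col8a1a (chromosome 9, 31124046 to 31136086), whose zebrafish mutant has a malformed notochord, had 126 FPKM in foxo3b MO and 70.4 FPKM in control (log2 fold 0.83). Col18a1, a basement membrane collagen that is the source of endostatin, had 74.4 FPKM in foxo3b MO and 44.3 FPKM in control (log2 fold 0.73). Col2a1a, the type II collagen of notochord and cartilage, had 169 FPKM in foxo3b MO and 105 FPKM in control (log2 fold 0.68). Col15a1b, a basement membrane collagen, and col27a1a, a fibrillar collagen of notochord and cartilage, had log2 folds of 0.61 and 0.88. Col27a1a was low, at 4.66 FPKM in foxo3b MO and 2.08 FPKM in control, and its locus entry is shared with a microRNA listed at 0. Other collagens of the same tissues lay nearer to 0, with col9a1 at 130 FPKM in foxo3b MO and 116 FPKM in control, and col4a5, a chain of the collagen IV network, at 71.3 FPKM in foxo3b MO and 64.6 FPKM in control.

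Markers of several cell types differed between the same libraries. The 6 notochord markers summed to 241 FPKM in foxo3b MO and 169 FPKM in control at 24 hpf, with a median log2 fold of 0.55 and none at 0 in either library. Among them ntla, the notochord T-box factor, had 23.6 FPKM in foxo3b MO and 14.1 FPKM in control, and flh, a notochord homeobox factor, had 8.96 FPKM in foxo3b MO and 3.29 FPKM in control. The 10 endothelial markers summed to 116 FPKM in foxo3b MO and 82.1 FPKM in control (median log2 fold 0.50). The 13 epidermis and fin fold markers had a median log2 fold of 0.29, the 13 cartilage and mesenchyme markers that passed the floor 0.04, and the 12 muscle markers -0.16. Neural crest and pigment markers had a median of -0.28 and myeloid markers -0.01, beside 0.19 for all genes. With equal totals the muscle, neural crest and pigment, and myeloid medians turned to 0.38, 0.22 and 0.39. The cartilage and mesenchyme median turned to -0.12 with median-ratio scaling and -0.13 with centring. The endothelial median was 0.19 with centring. Runx2a, a bone and cartilage regulator, was at 0 in both 24 hpf libraries. The 12 red cell markers had a median log2 fold of -1.23, with 7 of them 2-fold or more lower in foxo3b MO, where 1.94% of all genes were. Their part in the laminin and collagen values was not tested. Genes with wide loci also had higher log2 folds at 24 hpf, with an all-gene median of 0.32 in the widest of 5 bins of equal size, which holds 23 of the 47 matrix genes, and 0.01 in the narrowest, which holds 2. Its part in the 24 hpf values was not tested beyond the centred values above.

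Of 16 genes for collagen processing, 3 were 2-fold or more higher in foxo3b MO at 24 hpf and none lower, where 3.12% and 1.94% of all genes were. Their median log2 fold was 0.54, beside 0.19 for all genes. Hsp47, the collagen chaperone of the endoplasmic reticulum, had 1165 FPKM in foxo3b MO against 581 FPKM in control, just past 2-fold, and zgc:171630, its paralog now named serpinh1a, had 316 FPKM in foxo3b MO against 99.1 FPKM in control (log2 fold 1.66). Glt25d1, a collagen galactosyltransferase, had 21.4 FPKM in foxo3b MO against 8.51 FPKM in control (log2 fold 1.24). Ppib, the most abundant of this list and a prolyl isomerase of the same compartment, had 1291 FPKM in foxo3b MO and 1121 FPKM in control. None of 13 genes of the collagen export list, which holds vesicle coat genes, retrieval receptors of the endoplasmic reticulum and the factors creb3l1 and creb3l2, was at 2-fold. All 13 had log2 folds above 0, as 68.2% of all genes did, with a median of 0.41. Of 7 crosslinking genes, the lysyl oxidase genes loxl2b (28.8 FPKM in foxo3b MO, 13.1 FPKM in control) and loxl1 (8.69 FPKM in foxo3b MO, 3.40 FPKM in control) were 2-fold or more higher, with a list median of 0.72. With median-ratio scaling the processing, export and crosslinking medians were 0.31, 0.20 and 0.55, beside -0.01 for all genes. With equal totals they were 1.06, 0.81 and 1.12, beside 0.65 for all genes. With centring they were 0.26, 0.14 and 0.46, beside 0 for all genes. The count of crosslinking genes at 2-fold was 0 with median-ratio scaling and with centring and 4 with equal totals, and that of processing genes was 2, 2 and 9. Of all 11971 genes, 188 were higher with median-ratio scaling and 2332 with equal totals.

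Receptors of the matrix had a median log2 fold of 0.42 at 24 hpf. Dag1, the dystroglycan that binds laminin at the cell surface, was the 1 of 19 receptor genes at 2-fold, with 98.8 FPKM in foxo3b MO against 46.4 FPKM in control, and 18 of the 19 had log2 folds above 0. Among all genes 3.12% were 2-fold or more higher, 1.94% were 2-fold or more lower and 68.2% were above 0. No receptor was at 2-fold with median-ratio scaling or with centring, and 8 were with equal totals. Sdc4, a heparan sulfate receptor, had 290.4 FPKM in foxo3b MO and 153 FPKM in control, and bcam, a laminin receptor, had 64.9 FPKM in foxo3b MO and 33.3 FPKM in control. Mmp2, a gelatinase that cleaves collagen IV, was the 1 of 13 protease and inhibitor genes at 2-fold, with 138 FPKM in foxo3b MO against 38.1 FPKM in control (log2 fold 1.83). That list's median was -0.01, and 0.47 with equal totals. Of 38 other matrix genes 1 was 2-fold or more higher and 1 lower, with a median of 0.45. The higher one was efemp2a, a fibulin of elastic fibres, at 129.9 FPKM in foxo3b MO against 42.1 FPKM in control. The lower one was vtnb, a vitronectin, at 22.5 FPKM in foxo3b MO against 51.1 FPKM in control. With equal totals 15 of the 38 and 3 of the 13 proteases and inhibitors were higher, and with median-ratio scaling 3 of the 38 were lower. Over all 11971 genes, 2332 were higher with equal totals and 372 were lower with median-ratio scaling.

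At 48 hpf no matrix gene was 2-fold or more higher in foxo3b MO, where 1.92% of all genes were, and 2 of 47 were 2-fold or more lower, where 3.67% of all genes were. Both are cartilage genes with low values in most of the libraries. Matn1 (chromosome 19, 45245317 to 45268889), a cartilage matrilin, had 0.0907 FPKM in foxo3b MO against 5.44 FPKM in control at 48 hpf (log2 fold -2.56), and 0.744 FPKM in foxo3b MO and 0.178 FPKM in control at 24 hpf. Col10a1 (chromosome 17, 15383321 to 15388090), the network collagen of maturing cartilage and bone-forming cells, had 4.06 FPKM in foxo3b MO against 27.5 FPKM in control at 48 hpf (log2 fold -2.49), and was listed at 0 in foxo3b MO and at 0.0168 FPKM in control at 24 hpf. The median log2 fold of the 47 genes was -0.05, beside -0.02 for all genes, and it turned to 0.60 with equal totals.

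Other genes with low log2 folds at 48 hpf were also nearly silent at 24 hpf. Sparcl1, a relative of sparc, had 8.94 FPKM in foxo3b MO and 18.2 FPKM in control at 48 hpf (log2 fold -0.95). Col17a1a (chromosome 1, 50074733 to 50112253), the membrane-spanning collagen of epidermal hemidesmosomes, had 28.3 FPKM in foxo3b MO and 54.5 FPKM in control (log2 fold -0.92). Thbs4a, a thrombospondin, had 1.51 FPKM in foxo3b MO and 3.51 FPKM in control (log2 fold -0.85). These 3 had under 1 FPKM in both 24 hpf libraries. Matn3a (chromosome 20, 43791994 to 43807307), a matrilin with the same near absence at 24 hpf, differed from them in its 48 hpf values, 57.1 FPKM in foxo3b MO and 52.8 FPKM in control. Thbs3b, a thrombospondin present at both stages, had 11.3 FPKM in foxo3b MO and 19.9 FPKM in control at 48 hpf, and matn4 had 94.5 FPKM in foxo3b MO and 133 FPKM in control.

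Col9a1, which decorates type II fibres in cartilage and notochord, had the highest log2 fold of the matrix genes at 48 hpf, 0.83, at 33.4 FPKM in foxo3b MO and 18.4 FPKM in control. After it at low levels came thbs3a (3.41 FPKM in foxo3b MO, 1.70 FPKM in control), lama1, and col5a3a (2.26 FPKM in foxo3b MO, 1.20 FPKM in control). Their log2 folds were 0.71, 0.65 and 0.57. Col2a1a, found in the same tissues as col9a1, had a negative log2 fold at 48 hpf, -0.26, at 49.0 FPKM in foxo3b MO and 58.9 FPKM in control, a sign that turns with equal totals. Col1a1a had 271 FPKM in foxo3b MO and 217 FPKM in control, and col1a2 had 99.4 FPKM in foxo3b MO and 107.8 FPKM in control, so the alpha 1 genes together stood at 3.68 times col1a2 in foxo3b MO and 2.83 times in control. Sparc and postnb had log2 folds of -0.34 and -0.39 at 48 hpf and of -0.33 and -0.37 at 24 hpf, signs that turn with equal totals at both stages.

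Most of the remaining genes lay closer to control at both stages, though not col4a3bp at 24 hpf. Among fibrillar collagens, col11a1a had 69.6 FPKM in foxo3b MO and 63.2 FPKM in control at 48 hpf, and 80.9 FPKM in foxo3b MO and 66.6 FPKM in control at 24 hpf. Col11a1b and col11a2, like it chains of the cartilage collagen XI, had log2 folds of 0.22 and -0.11 at 48 hpf and of 0.30 and 0.43 at 24 hpf. Col5a2a, a type V chain, had 29.3 FPKM in foxo3b MO and 39.9 FPKM in control at 48 hpf (log2 fold -0.43), and 50.0 FPKM in foxo3b MO and 51.8 FPKM in control at 24 hpf. None of these 4 collagens came near 2-fold. Tnc, a tenascin of cartilage and tendon, had 29.5 FPKM in foxo3b MO and 41.3 FPKM in control at 48 hpf, and 52.7 FPKM in foxo3b MO and 39.9 FPKM in control at 24 hpf. Thbs4b, a thrombospondin of tendon attachments, had 26.7 FPKM in foxo3b MO and 33.6 FPKM in control at 48 hpf, and 37.1 FPKM in foxo3b MO and 30.3 FPKM in control at 24 hpf. Both had lower values in foxo3b MO at 48 hpf and higher ones at 24 hpf, with the 48 hpf sign turning under equal totals. Matn3b, the paralog of matn3a, stayed at or under 2.55 FPKM, where matn3a reached 57.1 FPKM in foxo3b MO at 48 hpf. The synthase gene has3 had 3.72 FPKM in foxo3b MO and 3.36 FPKM in control at 48 hpf, and has1 had 0.112 FPKM in foxo3b MO and 0.313 FPKM in control. The ceramide transfer genes, which share 1 locus entry, had log2 folds of -0.12 (col4a3bp) and 0.52 (col4a3bpa) at 48 hpf and of 0.76 and 0.41 at 24 hpf.

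Notochord markers at 48 hpf summed to 170 FPKM in foxo3b MO and 135 FPKM in control (median log2 fold 0.37), and cartilage and mesenchyme markers to 284 FPKM in foxo3b MO and 297 FPKM in control (median -0.08). Muscle markers had a median of -0.29, epidermis and fin fold markers 0.10, and endothelial markers -0.19. The cartilage and mesenchyme, muscle and endothelial signs turned under equal totals, to 0.57, 0.35 and 0.36. The 12 red cell markers had a median of -0.20, which turned to 0.45 with equal totals. Of them 4 were above 0 and 4 were 2-fold or more lower, where 48.3% and 3.67% of all genes were. None of the notochord or endothelial markers was at 0. The part of these cell types in the 48 hpf values was not tested.

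Among proteases and their inhibitors, 3 of 13 were 2-fold or more higher in foxo3b MO at 48 hpf, where 1.92% of all genes were. Mmp9, a gelatinase of myeloid cells and epidermis, had 44.3 FPKM in foxo3b MO against 5.86 FPKM in control (log2 fold 2.72), and mmp13a, a collagenase, had 27.3 FPKM in foxo3b MO against 5.37 FPKM in control (log2 fold 2.15). Timp2b, an inhibitor of metalloproteinases, had 20.6 FPKM in foxo3b MO against 7.01 FPKM in control (log2 fold 1.43). Mmp2 did not stand with them, at 86.8 FPKM in foxo3b MO and 98.9 FPKM in control. Of 38 other matrix genes 1 was 2-fold or more higher at 48 hpf and 2 were lower, where 3.67% of all genes were lower. The higher one was mfap4, also on the myeloid list, at 47.5 FPKM in foxo3b MO against 22.8 FPKM in control. Smoc1, a calcium-binding matrix protein, had 0.345 FPKM in foxo3b MO against 2.65 FPKM in control (log2 fold -1.44), and tnr, a tenascin, had 1.59 FPKM in foxo3b MO against 4.47 FPKM in control (log2 fold -1.08). The 8 measured myeloid markers had a median log2 fold of 0.29 at 48 hpf, with 5 above 0, as were 48.3% of all genes. Their sum was 338 FPKM in foxo3b MO and 467 FPKM in control, of which lyz, a lysozyme, made up 214 FPKM in foxo3b MO and 382 FPKM in control. The part of myeloid cells in these values was not tested. No gene for collagen processing, export or crosslinking and no receptor was 2-fold apart at 48 hpf, with median log2 folds of 0.03, 0.26, 0.14 and -0.27. With equal totals 1 of 16 processing genes, 6 of 13 export genes and 2 of 19 receptors were higher. In that setting 2005 of all 11971 genes were higher, and the receptor median turned to 0.39.

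**Figure D3:**
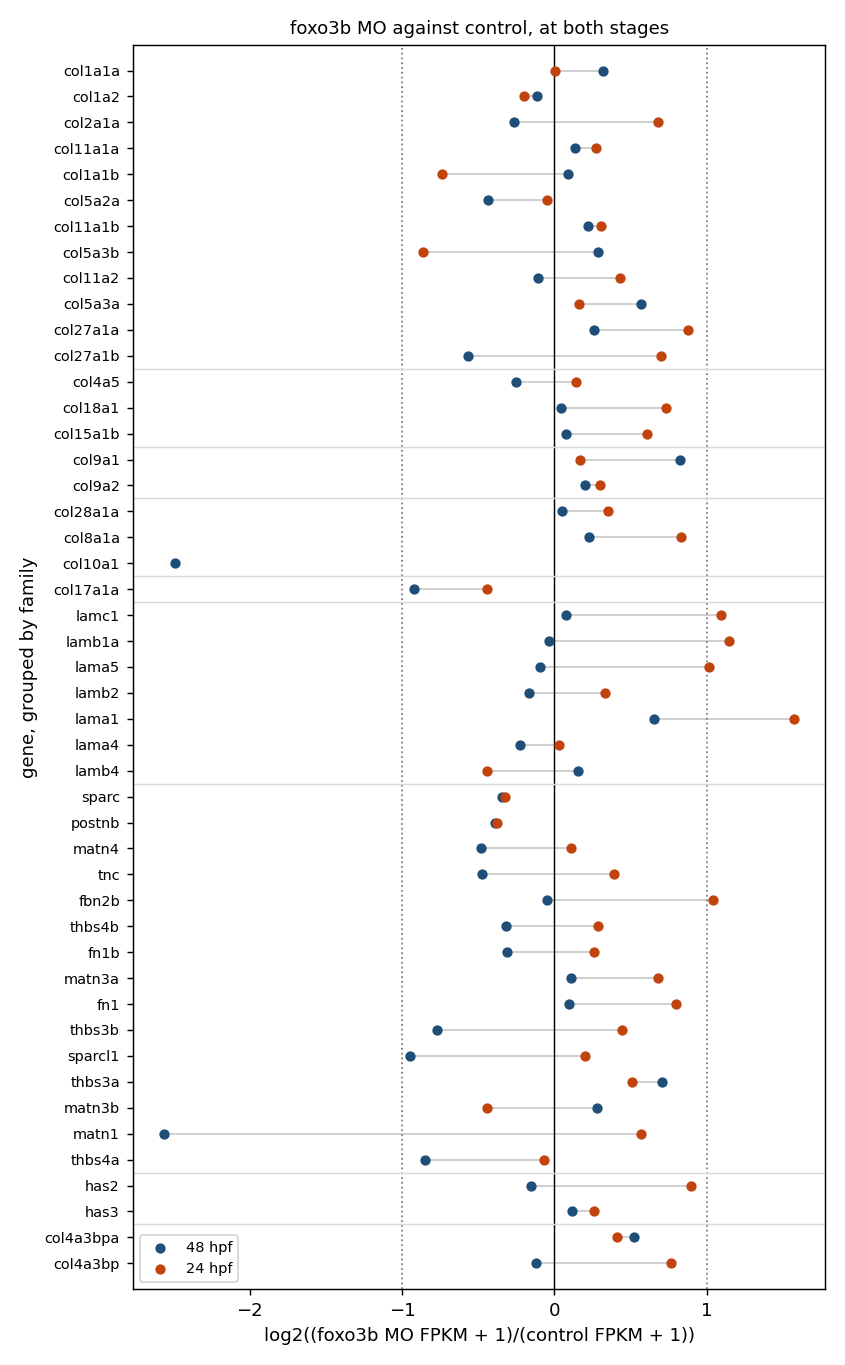
Log2((foxo3b MO FPKM + 1)/(control FPKM + 1)) of each matrix gene with a mean of at least 1 FPKM, in blue at 48 hpf and in orange at 24 hpf, with dotted lines at 2-fold and no 24 hpf point for col10a1, which is listed at 0 there. Lama1, lamb1a, lamc1, lama5 and fbn2b lie right of the upper line at 24 hpf, and matn1 and col10a1 left of the lower line at 48 hpf.

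Set against each other, the stages gave log2 folds of opposite sign about as often for matrix genes as for all genes. Of the 47 genes, 22 (46.8%) had opposite signs at 48 and 24 hpf, as did 46.7% of all genes. A further 18 were above 0 at both stages, where 34.9% of all genes were, and 7 below 0 at both, where 18.3% of all genes were. With equal totals 8 of the 47 had opposite signs, where 14.7% of all genes did. In that setting 37 of the 47 were above 0 at both, where 82.5% of all genes were. The 48 hpf log2 fold less the 24 hpf log2 fold was at least 1 for 1 gene, where it was for 2.95% of all genes, and at most -1 for 10 genes, where it was for 8.97% of all genes. The median difference was -0.54, beside -0.20 for all genes. Wide loci had lower differences over all genes. Their median was -0.43 in the widest of the 5 bins, which holds 23 of the 47 matrix genes, and -0.01 in the narrowest. With centring the matrix median was -0.21. The part of locus width was not tested beyond that. The 10 genes at -1 or less were matn1, col10a1, col27a1b, thbs3b, lamb1a, sparcl1, lama5, fbn2b, has2 and lamc1. Lamb1a differed by -1.18, lama5 by -1.11, lamc1 by -1.02, and col27a1b, a fibrillar collagen that shares its locus entry with a microRNA, by -1.27. Col27a1b was low throughout, at 1.69 FPKM in foxo3b MO and 2.98 FPKM in control at 48 hpf, and 1.34 FPKM in foxo3b MO and 0.442 FPKM in control at 24 hpf. The gene that differed the other way was col5a3b, by 1.15, at 18.7 FPKM in foxo3b MO and 15.1 FPKM in control at 48 hpf. The comparisons at each stage share no library, but these differences were not tested.

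Between the stages some matrix genes were higher at 48 hpf and others were lower. In foxo3b MO, 10 of 47 were 2-fold or more higher at 48 than at 24 hpf, where 15.7% of all genes were, and 16 were 2-fold or more lower, where 11.5% of all genes were. In control, 10 were 2-fold or more higher, where 21.0% of all genes were, and 9 were lower, where 8.75% of all genes were. Of these, 8 were higher in both foxo3b MO and control and 9 were lower in both. A further 7 were 2-fold or more lower in foxo3b MO only by this threshold, and 0 in control only. The overlaps were not counted over all genes, so they are not shown to be particular to matrix genes. The median log2 fold of the 47 genes between the stages was -0.41 in foxo3b MO and 0.04 in control, beside -0.03 and 0.18 for all genes, and the control median turned to -0.19 with median-ratio scaling and to -0.12 with centring.

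The 8 genes 2-fold or more higher at 48 hpf in both foxo3b MO and control were the glycoprotein genes sparc, postnb, fn1b, matn3a, sparcl1 and thbs4a and the collagens col10a1 and col17a1a, with col10a1 in foxo3b MO set against a listed 0. Matn3a had 57.1 FPKM at 48 hpf against 0.834 FPKM at 24 hpf in foxo3b MO, and 52.8 FPKM against 0.142 FPKM in control, with log2 folds of 4.99 and 5.56. Col17a1a had 28.3 FPKM at 48 hpf against 0.131 FPKM at 24 hpf in foxo3b MO, and 54.5 FPKM against 0.540 FPKM in control, with log2 folds of 4.69 and 5.17. Sparcl1 had log2 folds of 2.92 in foxo3b MO and 4.07 in control. These were near absent at 24 hpf, while sparc and postnb were already abundant then and had nearly equal stage differences in foxo3b MO and in control. The log2 folds of sparc were 1.59 in foxo3b MO and 1.61 in control, and those of postnb 1.95 in foxo3b MO and 1.96 in control. Col1a1b was higher at 48 hpf by 1.47 on the log2 scale in foxo3b MO, at 94.7 FPKM against 33.5 FPKM, and by 0.64 in control, at 88.8 FPKM against 56.5 FPKM.

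The 9 genes 2-fold or more lower at 48 hpf in both foxo3b MO and control were the collagens col9a1, col9a2, col15a1b, col28a1a, col8a1a and col5a3a, the laminins lamb1a and lama1, and the thrombospondin thbs3a. Those lower by this threshold in foxo3b MO only were col18a1, col2a1a, lamc1, lama5, fn1, has2 and col4a3bp. Col8a1a had 8.85 FPKM at 48 hpf against 126 FPKM at 24 hpf in foxo3b MO, and 7.43 FPKM against 70.4 FPKM in control, with log2 folds of -3.69 and -3.08. Col9a1 had 33.4 FPKM at 48 hpf against 130 FPKM at 24 hpf in foxo3b MO, and 18.4 FPKM against 116 FPKM in control, with log2 folds of -1.93 and -2.59. Its partner chain gene col9a2 had log2 folds of -1.13 in foxo3b MO and -1.03 in control, and col28a1a, a beaded filament collagen, -1.69 in foxo3b MO and -1.39 in control. The notochord marker ntla was lower too, with 4.76 FPKM at 48 hpf against 23.6 FPKM at 24 hpf in foxo3b MO, and 2.22 FPKM against 14.1 FPKM in control. The 6 notochord markers had median stage log2 folds of -1.31 in foxo3b MO and -0.76 in control. Of them 5 were below 0 in foxo3b MO and 4 in control, where 6122 and 4929 of all 11971 genes were. Cav1, the most abundant, went the other way, with log2 folds of 0.53 in foxo3b MO and 0.47 in control. The part of notochord cells in these values was not tested. Col2a1a had stage log2 folds of -1.77 in foxo3b MO and -0.83 in control.

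Laminins showed the stage difference more in foxo3b MO than in control. Their median log2 fold between stages was -1.50 in foxo3b MO, with 4 of 7 genes 2-fold or more lower, and -0.39 in control, with 2 of 7. Among all genes 11.5% in foxo3b MO and 8.75% in control were 2-fold or more lower, with medians of -0.03 and 0.18. The laminin medians in foxo3b MO and control were -1.49 and -0.62 with median-ratio scaling, and -1.12 and -0.45 with centring. The order was not particular to laminins. Collagen processing genes had medians of -0.90 in foxo3b MO and -0.30 in control, while col9a1 and col9a2 went the other way, with medians of -1.53 and -1.81. Lama1 had 5.55 FPKM at 48 hpf against 35.5 FPKM at 24 hpf in foxo3b MO, and 3.17 FPKM against 11.3 FPKM in control, with log2 folds of -2.48 and -1.56. Lamb1a had log2 folds of -2.20 in foxo3b MO and -1.02 in control, lamc1 -1.56 in foxo3b MO and -0.55 in control, and lama5 -1.50 in foxo3b MO and -0.39 in control. Lama4 had -0.22 in foxo3b MO and 0.04 in control, lamb2 -0.42 in foxo3b MO and 0.08 in control, and lamb4 was the laminin above 0 in both, at 0.96 in foxo3b MO and 0.36 in control. The comparison restates the higher 24 hpf levels in foxo3b MO, since the same 4 libraries are used.

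Fibronectin paralogs went opposite ways between the stages. Fn1b had 38.4 FPKM at 48 hpf against 16.5 FPKM at 24 hpf in foxo3b MO, and 47.9 FPKM against 13.7 FPKM in control, with log2 folds of 1.17 and 1.74. Fn1 had 13.2 FPKM at 48 hpf against 39.2 FPKM at 24 hpf in foxo3b MO, and 12.4 FPKM against 22.2 FPKM in control, with log2 folds of -1.50 and -0.79. Fn1b thus stood at 2.90 times fn1 in foxo3b MO and 3.88 times in control at 48 hpf, against 0.422 times in foxo3b MO and 0.616 times in control at 24 hpf. How the authors' counting divided reads that match more than 1 paralog is not given in the sources used here.

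Matrix genes outside the rule also differed by stage. Of 38 other matrix genes, 14 were 2-fold or more higher and 7 lower at 48 hpf in foxo3b MO, and 18 higher and 3 lower in control. Among all genes the shares were 15.7% higher and 11.5% lower in foxo3b MO, and 21.0% higher and 8.75% lower in control. And1 and and2, which code for the actinodins of fin fold fibres, stood at 188 and 156 FPKM at 48 hpf against 4.22 and 0.77 FPKM at 24 hpf in foxo3b MO, and at 127 and 268 FPKM against 5.54 and 1.75 FPKM in control. Collagen processing genes were lower by the same threshold in 7 of 16 cases in foxo3b MO, where 11.5% of all genes were, and 2 of 16 in control, where 8.75% were, and none was higher.

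**Figure D4:**
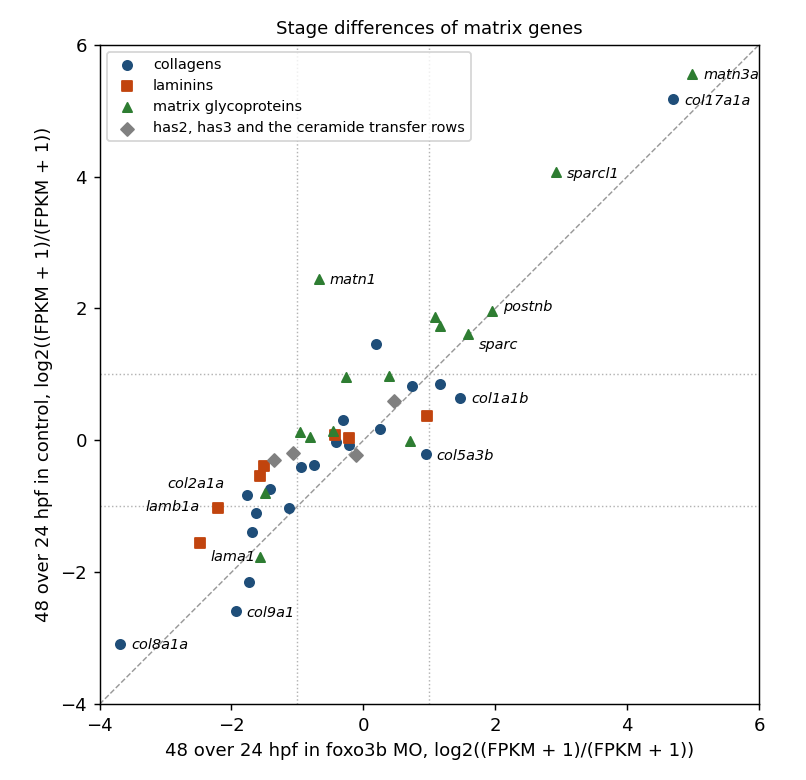
Log2((FPKM + 1)/(FPKM + 1)) of 48 over 24 hpf in foxo3b MO (horizontal axis) and in control (vertical axis) for the 46 matrix genes above 0 in all 4 libraries, with dotted lines at 2-fold and a dashed line of equal values. Matn3a and col17a1a lie at the upper right, col8a1a at the lower left, sparc and postnb on the dashed line, and lama1 and lamb1a above it, lower at 48 hpf in foxo3b MO by more than in control.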

How the data were processed

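For each of the 4 libraries the authors deposited a file of FPKM, normalized to library size and transcript length, with Zv9 loci of 14417 genes. TopHat, Cufflinks and the Zv9 assembly are named per the submitters' processing notes; how reads shared by genes were treated is not given in the sources used here. Strand, versions and options are not stated there either. The files hold no read counts, so no interval or test is given.

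Log2 folds used a pseudocount of 1 FPKM over genes averaging 1 FPKM or more, in Python 3.11.15, and the calculation was tested on simulated data. Counts at 2-fold stand beside the share of all genes at 2-fold in the same comparison. Any of the 48 genes may be named, and from each other list its most abundant gene and up to 3 genes with the largest log2 fold per comparison, plus runx2a because it was listed at 0. Current symbols came from a gene table used for names alone. Col4a3bp and col4a3bpa share 1 locus entry, are now 1 gene, and are left out of family summaries. They are counted among the 48 and the 47 genes called matrix genes. Without them 15 of 45 genes, rather than 16 of 47, were 2-fold or more lower at 48 than at 24 hpf in foxo3b MO. The genes, lists and rules were chosen with earlier results of these data known. Relative depth came from genes under 0.3 FPKM, of which 41.9% to 45.6% lay on a whole step within 0.03 log2.

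Alternatives were a pseudocount of 0.1 or 5 FPKM, dropping the floor or raising it to 5 FPKM, median-ratio scaling, equal totals, and leaving out genes at a shared locus or listed at 0. Centring by 10 bins of locus width and 5 of mean level, and leaving out the ceramide transfer genes, were chosen after seeing the data.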

Additional observations from a re-analysis of the deposited data

Results flagged for a closer look

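For 9 matrix genes the log2 folds of foxo3b MO over control had opposite signs at 48 and 24 hpf and differed by at least 2-fold. How many of all genes met both conditions was not counted, so the 9 are not shown to be particular to matrix genes. Opposite signs alone were found in 46.7% of all genes. Each difference, the 48 hpf value less the 24 hpf value, rests on 4 libraries and was not tested. Lamb1a differed by -1.18 and lama5 by -1.11, both near 0 at 48 hpf and above 1 at 24 hpf, and fbn2b by -1.09 in the same way. Has2 differed by -1.05. Thbs3b, at -1.21, and sparcl1, at -1.15, were below 0 at 48 hpf and above 0 at 24 hpf. Col27a1b, at -1.27, and matn1, at -3.13, did the same with values under 6 FPKM in every library. Col5a3b differed by 1.15, above 0 at 48 hpf and below 0 at 24 hpf. With equal totals lamb1a, lama5, fbn2b and has2 were above 0 at both stages, so their opposite signs depend on the scaling, while 7 of the 9 differences were still 2-fold or more. With median-ratio scaling 4 of the 9 differences were 2-fold or more, and with centring 2, matn1 and col5a3b.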

How the results depend on the processing

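Medians were taken as moved beyond 0.1 on the log2 scale and counts beyond 1.5 times. For foxo3b MO over control at 24 hpf, genes 2-fold or more higher numbered 10 and 3 with pseudocounts of 0.1 and 5 FPKM, 1 with median-ratio scaling, 13 with equal totals and 2 with centring, while 1 was lower with a pseudocount of 0.1 FPKM, with median-ratio scaling and with centring. The median was 0.11, 0.81 and 0.027 with median-ratio scaling, equal totals and centring. At 48 hpf, 4 were higher with equal totals, and 4, 1 and 1 were lower with a pseudocount of 0.1 FPKM, a floor of 5 FPKM and genes listed at 0 left out. The 48 hpf median turned to 0.60 with equal totals. Between stages, the foxo3b MO median was -0.20 with a pseudocount of 5 FPKM and -0.21 with centring. In control 4 genes were lower with a pseudocount of 5 FPKM, and the median turned to -0.19 with median-ratio scaling and -0.12 with centring. The difference between stages had medians of -0.41, -0.33, -0.40 and -0.21 with a pseudocount of 5 FPKM, median-ratio scaling, equal totals and centring. The cause was not tested.

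Scaling moved the all-gene median by -0.20 (median-ratio) and 0.46 (equal totals) from its value at 24 hpf and by 0.61 (equal totals) at 48 hpf, and by -0.22 (median-ratio) between stages in control, so directions are relative to it. Over all genes, 373 were higher and 232 lower at 24 hpf, against 188 and 372 with median-ratio scaling and 2332 and 83 with equal totals. At 48 hpf 230 were higher and 439 lower, against 2005 and 140 with equal totals. Of 52 single 2-fold differences, 13 fell short of 2-fold with a pseudocount of 5 FPKM, 8 with centring and 4 with median-ratio scaling. None changed sign in the alternatives that kept its gene, but this could hardly have come out otherwise. A pseudocount, a floor or a left-out gene cannot turn a sign, and both scalings moved the all-gene medians by less than 1. No paired analysis was possible because each group is 1 library. Depth limits values below about 1 FPKM, where matn1, col10a1, has1, matn3a, col17a1a, sparcl1, thbs4a and col27a1b lie in some libraries.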
